A study of Mus musculus with 9 samples.

Results

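The nuclear hormone receptors are a superfamily of transcription factors, and 42 mouse members were listed by gene symbol for this description. Of these, 35 were found among the 19044 gene identifiers of the count table, and Rarb, Nr1h4, Hnf4a, Pgr, Nr2e3, Nr5a2 and Nr0b1 were not analysed here. RNA was sequenced from mouse squamous cell carcinoma (SCC) cells of 3 cell lines, with 3 replicates each. The cells came from skin tumours raised chemically in FVB mice that carried loxP-flanked FAK alleles and the K14CreER recombinase, in which the keratin 14 promoter drives a fusion of Cre to an estrogen receptor domain. FAK, a focal adhesion kinase that also enters the nucleus, was then deleted in culture with 4-hydroxytamoxifen. All 3 lines share that deletion: FAK-/- cells are a clone with no FAK put back, while the FAK-WT and the FAK-kd lines are the same clone with wild-type or kinase-deficient FAK re-expressed from a retrovirus and selected with hygromycin. The comparisons ask which receptor transcripts differed with FAK (FAK-WT against FAK-/- cells), with its kinase activity (FAK-WT against FAK-kd cells), and with the kinase-deficient protein (FAK-kd against FAK-/- cells). These comparisons share their libraries.

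Nuclear receptors bind DNA through a zinc finger domain and, in most members, a small lipophilic ligand through a second domain. In the absence of ligand, thyroid hormone and retinoic acid receptors sit on their target genes as heterodimers with a retinoid X receptor and recruit corepressors, and ligand exchanges these for coactivators. Steroid receptors are held by chaperones until the hormone binds, whereas orphan receptors such as the Nr4a proteins act without a known natural ligand and are controlled mainly through their abundance. In skin, retinoid, vitamin D, thyroid hormone and glucocorticoid receptors are known for their roles in keratinocyte growth and differentiation.

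Ptk2, the gene of FAK, was measured at 213, 216 and 216 CPM (TMM-scaled counts relative to library size) in FAK-WT, 21.8, 23.5 and 19.6 CPM in FAK-/- and 155, 158 and 176 CPM in FAK-kd cells, lowest in the line labelled as lacking it. FAK-WT replicate 1 held 779755 counts, and the other 8 libraries held between 25304994 and 37264636. In that shallow library 1 count equalled 1.26 CPM, and 3 counts, the floor used for detection, equalled 3.78 CPM. FAK-/- replicate 3 stood apart from the other FAK-/- replicates: its deviation from the group mean rose with the GC content of the gene (Spearman's rho = 0.761 across 9871 genes, which are not independent replicates), against -0.642 and -0.688 in replicates 1 and 2. Of 22 receptors with a mean count of at least 100, 16 were highest among the FAK-/- replicates in replicate 3, and their median GC content was 51.2% against 49.4% over the 9871 genes. The part of this trend in the receptor values was measured by leaving the library out and by a GC correction. Where either changed the call of a receptor, that change is given beside the receptor. Of the 8 genes of the keratinocyte and squamous epithelium list, 6 were found among the gene identifiers, and Trp63 and Epcam were not. In that list Krt5, Krt14, Krt18 and Cdh1 had at most 8 counts in any library and Krt8 at most 46, so that its summed level (170 to 175 CPM in FAK-WT, 283 to 297 in FAK-/- and 252 to 274 in FAK-kd cells) was almost all Itga6. The fibroblast list summed to between 1345 and 1988 CPM, of which Col3a1 alone gave 1287 to 1913 CPM, while Thy1, Dcn and Col1a1 had at most 2, 19 and 56 counts in a library. Of its genes, Pdgfra and Pdgfrb were lower in FAK-WT than FAK-/- cells (log2 fold changes -1.44 and -2.04, edgeR's adjusted p = 1.35e-05 and 4.28e-07) and than FAK-kd cells (-1.11 and -2.40, adjusted p = 0.000157 and 7.35e-08). Dcn went the other way, higher in FAK-WT than FAK-/- cells (2.24, edgeR's adjusted p = 0.0426). It had 0, 19 and 13 counts in FAK-WT and 5, 0 and 3 in FAK-/- libraries. By edgeR, Col1a2 (1.29, adjusted p = 0.00469) and Krt8 of the keratinocyte list (2.13, adjusted p = 0.00548) were higher in FAK-kd than FAK-/- cells. The immune and endothelial lists summed to at most 3.36 and 2.05 CPM, and of these Cdh5 had an adjusted p of at most 0.05 and a log2 fold change over 1 in both FAK-WT comparisons, with 1, 74 and 43 counts in FAK-WT, 6, 3 and 4 in FAK-/- and 0, 0 and 2 in FAK-kd libraries. The part of these marker differences in the receptor results was not tested.

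A receptor counted as past the threshold when edgeR's quasi-likelihood test gave it a Benjamini-Hochberg adjusted p of 0.05 or less over all 19044 genes and its log2 fold change reached 1 in either direction. Of the 35 receptors, 4 were past it between FAK-WT and FAK-/- cells (11.4%), where 5.38% of all genes were. In FAK-WT cells 1 receptor, Thrb, was higher (2.32% of all genes were) and 3, Rorb, Nr4a2 and Rora, were lower (3.06%). Between FAK-WT and FAK-kd cells 2 receptors were past it (5.71%), against a background of 5.26% of all genes, with Thrb higher (background 2.37%) and Rorb lower (2.89%). Between FAK-kd and FAK-/- cells Thrb was the 1 receptor past it (2.86%, background 2.01%). It was higher in FAK-kd cells (background 0.914%). No receptor was lower there (background 1.09%) by edgeR or by DESeq2. At an unadjusted p under 0.05 in edgeR, 10 of the 35 receptors were lower, a larger share than the 10.3% of all genes. Of these 10, Rora also passed the fold-change minimum, 1 of the 35 receptors against 2.69% of all genes. At an adjusted p of 0.05 alone, 9 receptors differed in the first comparison (25.7%, background 18.0%), 7 in the second (20%, background 17.7%) and 5 in the third (14.3%, background 7.84%). The median log2 fold change over the 35 receptors was -0.08, -0.04 and 0, against 0 over all genes in each comparison.

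To show where these receptor genes start, the 250 bases upstream of their annotated starts are given for the 3 well-measured genes past the threshold. The sequences are RefSeq's for the GRCm38.p6 build, 5′ to 3′ in the direction of the gene, and capitals mark matches on either strand to 6 motifs: AGGTCA (the core of many nuclear receptor elements), TGANTCA (AP-1), TGACGTCA and its shorter form TGACG (cAMP response element), CACGTG (E-box) and CCGGAAGT (ETS).
Thrb upstream start, chr14:17660710-17660959, plus strand: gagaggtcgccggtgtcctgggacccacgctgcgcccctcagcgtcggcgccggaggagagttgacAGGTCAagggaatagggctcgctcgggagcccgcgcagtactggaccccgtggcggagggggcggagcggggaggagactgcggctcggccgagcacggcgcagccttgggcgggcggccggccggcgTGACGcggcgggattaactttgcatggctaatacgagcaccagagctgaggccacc
Thrb downstream start, chr14:17981394-17981643, plus strand: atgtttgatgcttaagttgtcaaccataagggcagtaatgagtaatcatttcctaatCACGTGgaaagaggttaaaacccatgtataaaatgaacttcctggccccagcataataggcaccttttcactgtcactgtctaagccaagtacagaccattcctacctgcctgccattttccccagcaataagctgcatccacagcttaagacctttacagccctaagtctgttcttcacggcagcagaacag
Rorb upstream start, chr19:19111197-19111446, minus strand: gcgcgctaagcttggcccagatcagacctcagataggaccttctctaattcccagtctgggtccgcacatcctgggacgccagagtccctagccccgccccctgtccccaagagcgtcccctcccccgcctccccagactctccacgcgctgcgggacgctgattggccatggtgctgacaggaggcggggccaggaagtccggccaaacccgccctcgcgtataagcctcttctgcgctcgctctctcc
Rorb downstream start, chr19:19001118-19001367, minus strand: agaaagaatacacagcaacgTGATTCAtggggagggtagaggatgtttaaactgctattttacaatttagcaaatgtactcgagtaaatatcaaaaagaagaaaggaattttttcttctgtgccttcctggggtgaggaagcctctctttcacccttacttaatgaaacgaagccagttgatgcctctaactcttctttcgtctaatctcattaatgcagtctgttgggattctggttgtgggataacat
Nr4a2 start, chr2:57124004-57124253, minus strand: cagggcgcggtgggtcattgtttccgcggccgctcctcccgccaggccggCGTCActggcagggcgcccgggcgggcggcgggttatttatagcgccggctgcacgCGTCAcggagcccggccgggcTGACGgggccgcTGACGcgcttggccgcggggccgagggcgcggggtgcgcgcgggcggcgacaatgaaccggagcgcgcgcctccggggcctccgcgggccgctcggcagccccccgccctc
The upstream Thrb window holds an AGGTCA at position -184 and a TGACG at -56, counted from the start of transcription, and the downstream window holds a CACGTG at -193. The downstream Rorb window holds the AP-1 letters TGATTCA, at position -230, and its upstream window holds none of these letters. The Nr4a2 window is 80% G and C and holds TGACG 4 times, at -200 and -144 on the minus strand of the gene and at -123 and -111 on its plus strand. These letters are common: of 32851 such windows in the mouse genome, 14.02% hold AGGTCA, 6.749% TGANTCA, 1.546% TGACGTCA, 17.77% TGACG, 6.021% CACGTG and 2.877% CCGGAAGT. Windows were found for 33 of the 35 receptors, 52 windows in all, of which 8, 3, 0, 12, 4 and 1 hold these motifs in the same order. A match is a description of the letters, and gene-level counts do not tell the transcripts of one start from those of another.

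The measured receptors covered a wide range of levels. A receptor was called measured where at least 3 libraries held 10 or more counts, and 23 of the 35 were. Per kilobase of its longest transcript, Rarg, the retinoic acid receptor known as the main one of the epidermis, had the highest mean over the 9 libraries, at 98.4 CPM per kb (73.8 to 121), and its range did not overlap that of the next gene. Nr2f2 (52.0 CPM per kb), Nr1h2 (38.7), Nr2f6 (38.5), Nr2f1 (29.7), the glucocorticoid receptor gene Nr3c1 (27.1) and Nr1d2 (26.7) followed, and each of these overlapped the next in range. The order ran on without a gap through Rxrb, Nr1d1, Rxra, Thra, Ppard, Rara, Nr2c2, Esrra, Nr4a1 and Esr1 to Nr2c1, at 4.96 CPM per kb. Below a gap lay Nr4a2 (1.38 CPM per kb), Rorb (0.759), Thrb (0.718), Nr6a1 (0.634) and Vdr (0.413), again with overlapping ranges, so that the 3 measured receptors past the threshold were among the 5 lowest of the 23. Another 5 receptors, Nr1h3, Rora, Nr3c2, Nr4a3 and Esrrg, had counts in too few libraries, and Esr2, Nr1i3, Rxrg, Ppara, Pparg, Esrrb and Nr1i2 had at most 3 counts in every library, which is at the floor.

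**Figure D1:**
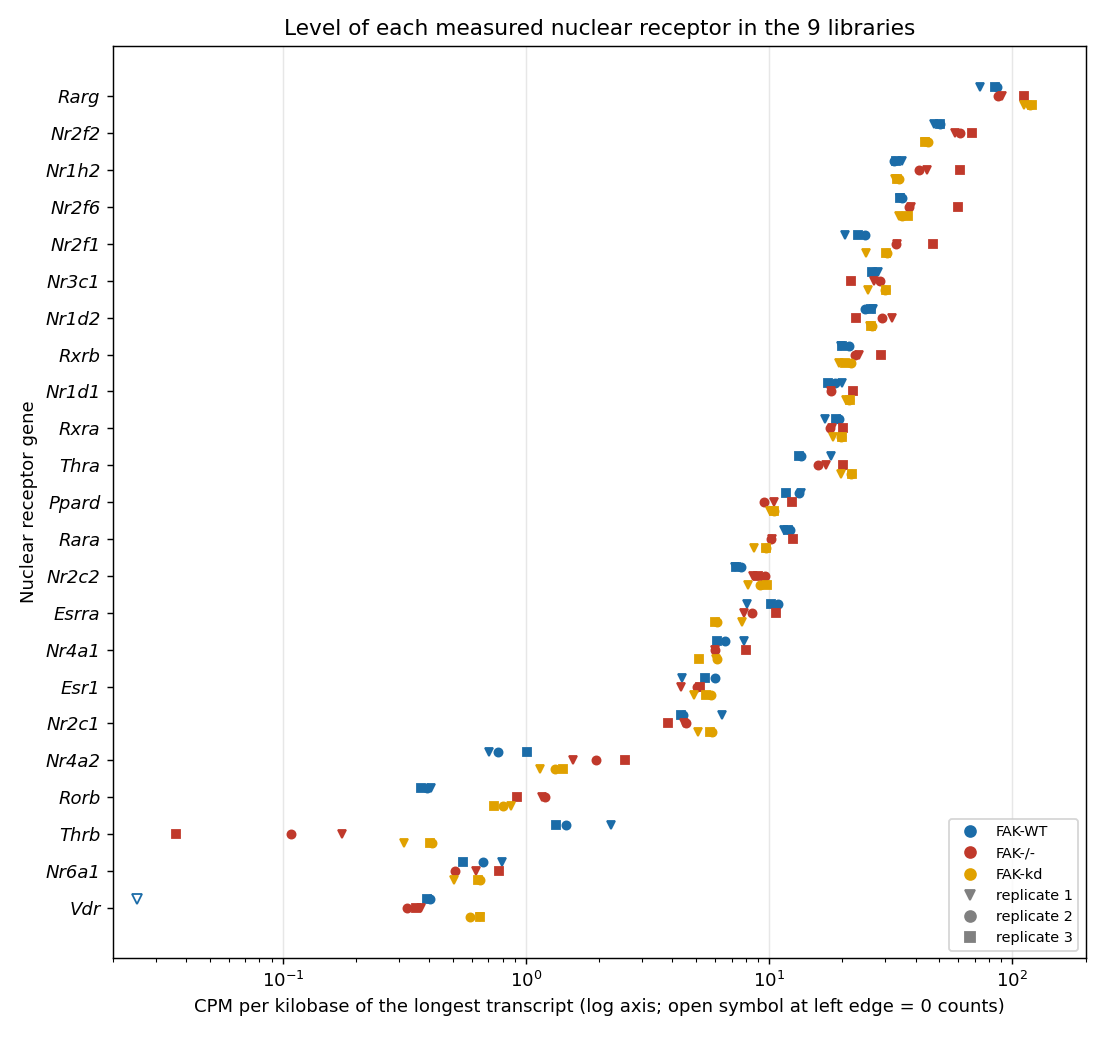
Level of the 23 measured nuclear receptors in each of the 9 libraries, as CPM per kilobase of the longest transcript on a log axis, with cell lines by colour and replicates by symbol. Rarg lies highest at a mean of 98.4 CPM per kb, 18 receptors lie above the gap that follows Nr2c1, and the Thrb libraries of the 3 cell lines do not overlap.

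Thrb encodes thyroid hormone receptor beta (ENSMUSG00000021779, chr14:17660261-18038090 on the plus strand of GRCm38). Its level was 13.8, 9.05 and 8.22 CPM in FAK-WT replicates 1 to 3, from 11, 340 and 285 counts. It was 1.08, 0.670 and 0.224 CPM in FAK-/- cells (36, 17 and 7 counts) and 1.95, 2.55 and 2.49 CPM in FAK-kd cells (65, 85 and 85 counts). No library of one line overlapped one of another, with FAK-WT highest, FAK-kd between and FAK-/- lowest. The 11 counts of FAK-WT replicate 1 give an exact 95% Poisson interval of 6.91 to 24.8 CPM, which covers counting error only and lies above every FAK-/- and FAK-kd library. The log2 fold change was 3.80 ± 0.38 (SE) in FAK-WT over FAK-/- cells, a 14.0-fold difference (adjusted p = 3.4e-06). It was 2.00 ± 0.34 in FAK-WT over FAK-kd cells (adjusted p = 0.000538) and 1.81 ± 0.36 in FAK-kd over FAK-/- cells (adjusted p = 0.00569). Taken alone, each pair of lines gave an exact two-sided permutation p of 0.1, the smallest that 3 libraries against 3 can give. The FAK-/- level rested on few counts: leaving out FAK-/- replicate 1 raised the first log2 fold change to 4.41, and leaving out replicate 3, the library with the GC trend, lowered it to 3.34 and that of FAK-kd over FAK-/- cells to 1.38, all still past the threshold. When tested against the fold-change minimum itself (edgeR's glmTreat), no receptor passed between FAK-kd and FAK-/- cells, Thrb included. In bulk RNA, fewer cells with the transcript and less transcript per cell cannot be told apart.

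Thra, the gene of the alpha receptor (ENSMUSG00000058756), was far more abundant per kilobase than Thrb. It stood at 44.1, 33.3 and 32.4 CPM in FAK-WT, 42.1, 39.1 and 49.3 in FAK-/- and 48.6, 53.4 and 53.8 in FAK-kd cells, so that FAK-WT and FAK-/- libraries overlapped and FAK-WT and FAK-kd libraries did not. It was lower in FAK-WT than in FAK-kd cells at a log2 fold change of -0.61 ± 0.12 (adjusted p = 0.00154). The difference from FAK-/- cells, -0.35 ± 0.12 (adjusted p = 0.0481), passed in 5 of 16 alternatives. This call was lost with the GC correction and held without FAK-/- replicate 3. Thra was also higher in FAK-kd than FAK-/- cells with the GC correction (0.39, adjusted p = 0.00561) and without FAK-/- replicate 3 (0.35, adjusted p = 0.00327). The share of Thrb in the counts of both genes was therefore 21.8% ± 1.9 (SD, n = 3) in FAK-WT, 4.28% ± 0.37 in FAK-kd and 1.55% ± 1.0 in FAK-/- cells, a share of counts and not of receptor molecules, since the transcripts differ in length. In single libraries the share was 23.9% (95% Wilson interval 13.9 to 37.9) in the shallow FAK-WT replicate 1, 20.2% to 21.4% in the other FAK-WT libraries, 3.86% to 4.55% in FAK-kd and 0.452% to 2.5% in FAK-/- libraries. The transcripts of Thra overlap those of Nr1d1 on the opposite strand over 263 exonic bases, and 5.17% of the 31-base words of Thra and 7.85% of those of Nr1d1 are shared. The library kit does not mark strand, so reads from that stretch cannot be assigned to either gene.

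Among the other members of this class, the retinoic acid and retinoid X receptors, no measured gene reached the fold-change minimum, and Rxrg had at most 2 counts in a library. Rarg was lower in FAK-WT than in FAK-kd cells (log2 fold change -0.50 ± 0.09, adjusted p = 0.00118), with means of 241 ± 20 (SD, n = 3), 285 ± 39 and 345 ± 13 CPM in FAK-WT, FAK-/- and FAK-kd cells. It was also higher in FAK-kd than FAK-/- cells with the GC correction (0.39, adjusted p = 0.000187) and without FAK-/- replicate 3 (0.39, adjusted p = 5.7e-05). Rara, the more widely expressed retinoic acid receptor, was higher in FAK-WT than in FAK-kd cells (0.36 ± 0.10, adjusted p = 0.0249), a call that was lost without FAK-WT replicate 2 or 3 or FAK-kd replicate 1 (adjusted p = 0.112, 0.0975 and 0.0731). Its difference from FAK-/- cells passed with the GC correction (0.30, adjusted p = 0.00928) and without FAK-/- replicate 3 (0.23, adjusted p = 0.0388). Rxra, a common heterodimer partner, was measured at 90.0 ± 6.1, 91.7 ± 6.1 and 94.6 ± 4.1 CPM in the same order, and the 95% intervals of its log2 fold changes lay within -0.21 and 0.20. Rxrb missed the adjusted p in all 3 comparisons and passed it against FAK-/- cells in 1 of 16 alternatives for each FAK-expressing line, without FAK-/- replicate 2, with 76.0 CPM in FAK-/- replicate 3 and between 51.0 and 61.6 CPM in the other 8 libraries.

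Of the lipid, sterol and xenobiotic sensors, 3 of 8 in the table were measured. Nr1h2, which encodes the oxysterol receptor LXR beta, was lower in both FAK-expressing lines than FAK-/- cells. Its level was 70.5, 65.5 and 66.7 CPM in FAK-WT and 65.5, 68.5 and 67.3 in FAK-kd cells, against 88.7, 82.3 and 122 in FAK-/- cells, and no FAK-/- library overlapped the others. The log2 fold changes were -0.55 ± 0.12 for FAK-WT (adjusted p = 0.00449) and -0.54 ± 0.11 for FAK-kd cells (adjusted p = 0.00705). Under the GC correction they were -0.33 (adjusted p = 0.000774) and -0.38 (adjusted p = 0.000336). For FAK-WT against FAK-kd cells the interval of the difference was -0.27 to 0.25. Ppard, a fatty acid sensor, differed by 0.23 (95% interval -0.003 to 0.46) between FAK-WT and FAK-/- cells and by 0.29 (0.06 to 0.53) between FAK-WT and FAK-kd cells, and passed in neither (adjusted p = 0.178 and 0.0805). Both passed with the GC correction (0.28, adjusted p = 0.0303, and 0.32, adjusted p = 0.0147) and without FAK-/- replicate 3 (0.34, adjusted p = 0.00368, and 0.29, adjusted p = 0.00432), and the second in 5 of 16 alternatives in all. Vdr, the vitamin D receptor, was low, with 0, 1.76 and 1.70 CPM in FAK-WT, 1.62, 1.42 and 1.54 in FAK-/- and 2.82, 2.58 and 2.81 in FAK-kd cells. The 0 counts in the shallow FAK-WT library lie under its floor of 3 counts, which equals 3.78 CPM there. The higher FAK-kd values gave log2 fold changes of 0.84 ± 0.26 over FAK-/- cells (adjusted p = 0.0679) and -0.74 ± 0.29 for FAK-WT over FAK-kd cells (adjusted p = 0.0968). The first passed in 3 of 16 alternatives, with the GC correction (adjusted p = 0.0381), without FAK-WT replicate 1 (adjusted p = 0.0207) and with only those groups fitted, and the second in 1, without FAK-/- replicate 3 (adjusted p = 0.0462).

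Rorb and Rora belong to the ROR receptors, which share DNA elements with the Rev-erb repressors Nr1d1 and Nr1d2 in the circadian clock. Rorb (ENSMUSG00000036192, chr19:18930605-19111196, minus strand) was measured at 3.78, 3.65 and 3.43 CPM in FAK-WT, 10.8, 11.1 and 8.48 in FAK-/- and 8.03, 7.43 and 6.82 in FAK-kd cells. All 3 FAK-WT libraries lay below all others, and the FAK-kd libraries lay below the FAK-/- libraries by a small margin. FAK-WT replicate 1 held 3 counts, the floor, but without it the first log2 fold change was -1.51 again. Rorb was lower in FAK-WT than FAK-/- cells by a log2 fold change of -1.51 ± 0.16 (adjusted p = 7.59e-06) and lower than in FAK-kd cells by -1.06 ± 0.16 (adjusted p = 0.000213), the latter -0.99 without FAK-kd replicate 1 and then just short of the fold-change minimum. The FAK-kd and FAK-/- lines differed by -0.45 ± 0.14 (adjusted p = 0.064). Without FAK-/- replicate 3 that difference was -0.56 (adjusted p = 0.00424), and with the GC correction it was -0.53 (adjusted p = 0.00512).

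Rora (ENSMUSG00000032238), described after its values were seen, had 1, 1 and 2 counts in the FAK-WT libraries, 16, 9 and 11 in FAK-/- and 3, 4 and 6 in FAK-kd libraries. The 1 count of the shallow library equals 1.26 CPM and lies above every FAK-/- library, so the groups overlap and the FAK-WT level is bounded mainly by replicates 2 and 3. With counts pooled within lines, Rora stood at 0.0548 CPM (95% Poisson interval 0.0149 to 0.140) in FAK-WT, 0.400 (0.280 to 0.554) in FAK-/- and 0.129 (0.0686 to 0.220) in FAK-kd cells. The log2 fold change of -2.63 ± 0.82 between FAK-WT and FAK-/- cells (adjusted p = 0.0368) was no longer past the threshold in 8 of 16 alternatives, DESeq2 among them (adjusted p = 0.278), with adjusted p between 0.00701 and 0.297 when single libraries were left out. Nr1d1 and Nr1d2 passed in no comparison with all libraries and no correction. Nr1d1 was higher in FAK-kd than FAK-/- cells with the GC correction (0.21, adjusted p = 0.0309), and without FAK-/- replicate 3 it was higher than in FAK-/- (0.24, adjusted p = 0.0130) and FAK-WT cells (adjusted p = 0.00691). Nr1d2 was lower in FAK-WT than FAK-/- cells with the GC correction (-0.19, adjusted p = 0.0390), and without FAK-/- replicate 3 in both FAK-WT (-0.25, adjusted p = 0.00269) and FAK-kd cells (-0.22, adjusted p = 0.00957). Nr1d2 was measured at 121 ± 4.6, 130 ± 22 and 122 ± 1.2 CPM in FAK-WT, FAK-/- and FAK-kd cells.

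The Nr4a receptors are immediate early genes that respond to growth factors and cAMP. Nr4a2 (ENSMUSG00000026826, chr2:57106830-57124003, minus strand) was measured at 2.52, 2.74 and 3.60 CPM in FAK-WT, 5.54, 6.90 and 9.12 in FAK-/- and 4.08, 4.67 and 5.04 in FAK-kd cells. The 3 lines did not overlap in any pair, with FAK-WT lowest and FAK-/- highest. FAK-WT replicate 1 held 2 counts, under the floor, and their 95% Poisson interval of 0.305 to 9.09 CPM spans every other library except FAK-/- replicate 3, so the FAK-WT level rests on replicates 2 and 3. The log2 fold change was -1.19 ± 0.22 in FAK-WT against FAK-/- cells (adjusted p = 0.00124), and -0.98 (adjusted p = 0.000908) without FAK-/- replicate 3, the highest library, which put it below the fold-change minimum. The differences between FAK-WT and FAK-kd cells (-0.55 ± 0.22, adjusted p = 0.108) and between FAK-kd and FAK-/- cells (-0.64 ± 0.19, adjusted p = 0.0566) did not pass. The first passed the adjusted p in 2 of 16 alternatives, a replicate block and without FAK-/- replicate 3 (adjusted p = 0.0308), and the second in 3, a replicate block (adjusted p = 0.0292), without FAK-/- replicate 1 (adjusted p = 0.0202) and with the GC correction (adjusted p = 0.0317).

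Nr4a1 (ENSMUSG00000023034), a paralog of Nr4a2, passed in no comparison. Its level was 20.1, 16.8 and 15.5 CPM in FAK-WT, 15.2, 15.3 and 20.5 in FAK-/- and 15.4, 15.6 and 13.2 in FAK-kd cells, with overlap between all lines. The 95% interval of the log2 fold change was -0.34 to 0.24 in FAK-WT against FAK-/- cells, -0.13 to 0.45 in FAK-WT against FAK-kd cells and -0.47 to 0.05 in FAK-kd against FAK-/- cells, so that differences of the size seen for Nr4a2 in the first comparison lay outside it. Nr4a3 was low, at 10 counts or fewer in every library. Nr6a1, a germ cell receptor, was measured at 4.24 ± 0.77, 4.03 ± 0.83 and 3.77 ± 0.49 CPM in FAK-WT, FAK-/- and FAK-kd cells and passed in no comparison.

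**Figure D2:**
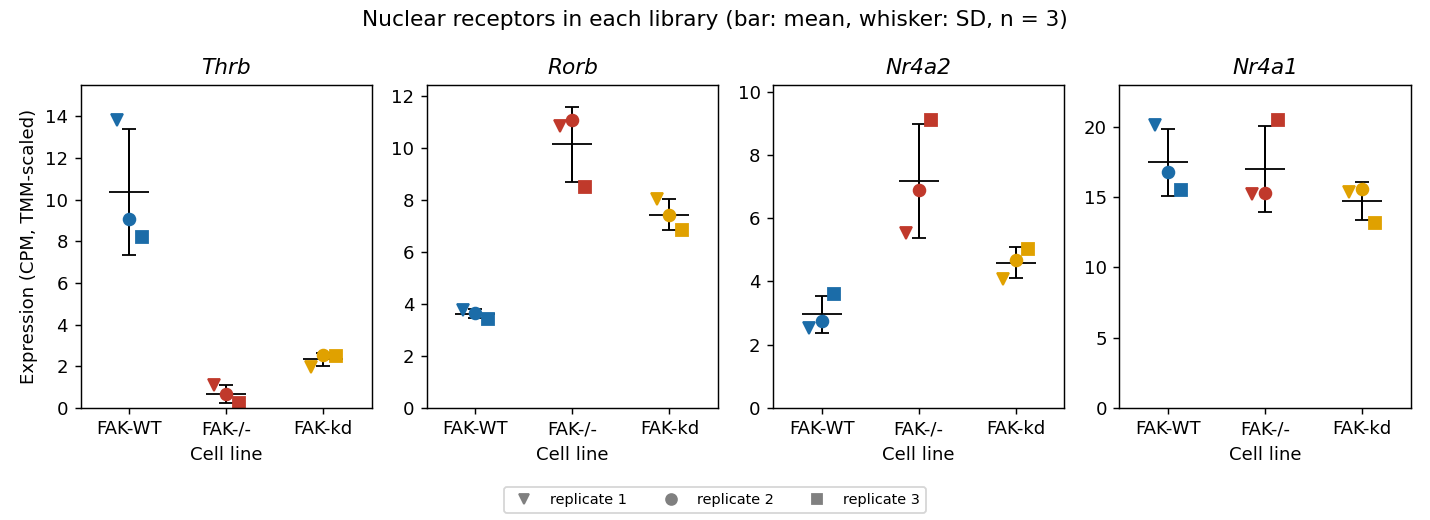
CPM of Thrb, Rorb, Nr4a2 and Nr4a1 in each library of the 3 cell lines, with the mean as a bar and the SD as a whisker (n = 3) on axes that start at 0. Thrb is highest in FAK-WT cells at 8.22 to 13.8 CPM, Rorb and Nr4a2 are lowest there, and the Nr4a1 libraries of the 3 lines overlap.

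Of the steroid hormone receptors, Nr3c1 and Esr1 were measured and neither passed in any comparison. The glucocorticoid receptor gene Nr3c1 stood at 174 ± 5.2, 166 ± 23 and 184 ± 16 CPM in FAK-WT, FAK-/- and FAK-kd cells, and its largest log2 difference, FAK-kd over FAK-/- cells, was 0.15 (95% interval -0.05 to 0.35). Esr1, the gene of estrogen receptor alpha, stood at 33.3 ± 5.1, 30.8 ± 2.9 and 34.2 ± 2.8 CPM. The CreER transgene carries an estrogen receptor domain, and gene-level counts do not tell its reads from those of the endogenous gene. Nr3c2, the mineralocorticoid receptor gene, and Esr2 were low, with at most 10 and 3 counts in a library. Of the estrogen-related receptors, which act on mitochondrial and energy metabolism genes, Esrra was measured at 20.1, 27.0 and 25.3 CPM in FAK-WT, 19.7, 21.2 and 26.4 in FAK-/- and 19.3, 15.2 and 14.9 in FAK-kd cells. All FAK-WT libraries lay above all FAK-kd libraries (log2 fold change 0.63 ± 0.14, adjusted p = 0.00383). Esrra was also lower in FAK-kd than FAK-/- cells at -0.45 ± 0.13 (adjusted p = 0.0455), a call that was lost without FAK-WT replicate 2 or 3, FAK-/- replicate 3 or FAK-kd replicate 2 or 3 (adjusted p = 0.0571 to 0.222) and held in 9 of 16 alternatives. Without FAK-/- replicate 3, Esrra was higher in FAK-WT than FAK-/- cells (0.34, adjusted p = 0.0328).

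The COUP-TF orphan receptors Nr2f1 and Nr2f2, known as regulators of development, were higher in FAK-/- than in FAK-WT cells. Nr2f1 was measured at 65.5, 79.3 and 74.4 CPM in FAK-WT, 107, 106 and 151 in FAK-/- and 80.1, 97.8 and 97.1 in FAK-kd cells, and the lines did not overlap in any pair. Its log2 fold change was -0.69 ± 0.13 in FAK-WT against FAK-/- cells (adjusted p = 0.00135), and -0.41 ± 0.12 in FAK-kd against FAK-/- cells did not pass (adjusted p = 0.0526), although it passed in 7 of 16 alternatives, DESeq2 (adjusted p = 0.0266) and the GC correction (-0.25, adjusted p = 0.0301) among them. Nr2f1 was lower in FAK-WT than in FAK-kd cells in 4 of 16, with the GC correction (-0.22, adjusted p = 0.0459) and without FAK-/- replicate 3 (-0.27, adjusted p = 0.00628) among them. Nr2f2 stood at 208 ± 7.3 CPM in FAK-WT, 264 ± 23 CPM in FAK-/- and 186 ± 2.9 CPM in FAK-kd cells, lower in both FAK-expressing lines than FAK-/- cells (-0.33 ± 0.07, adjusted p = 0.00477, and -0.50 ± 0.07, adjusted p = 0.000297). Without FAK-/- replicate 3 its FAK-WT level passed over that of FAK-kd cells (0.18, adjusted p = 0.00733). Nr2f6 is nearly level with Nr1h2 per kilobase but shares 47.5% of its 31-base words with Ocel1, and Nr2c2, a testicular receptor, shares 31% with Mrps25 and others, so both values are uncertain. Nr2f6 passed the adjusted p in none of the 3 comparisons, and in 3 and 2 of 16 alternatives for FAK-WT and FAK-kd against FAK-/- cells. Nr2c2 was lower in FAK-WT than FAK-/- (-0.28 ± 0.09, adjusted p = 0.0348) and FAK-kd cells (-0.28 ± 0.09, adjusted p = 0.0388), calls that held in 9 and 6 of 16 alternatives. Nr2c1 was higher in FAK-kd than FAK-/- cells (0.37 ± 0.11, adjusted p = 0.0492), which held in 5 of 16, and lower in FAK-WT than in FAK-kd cells in 3 of 16, without FAK-/- replicate 3 among them (-0.31, adjusted p = 0.0156).

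**Figure D3:**
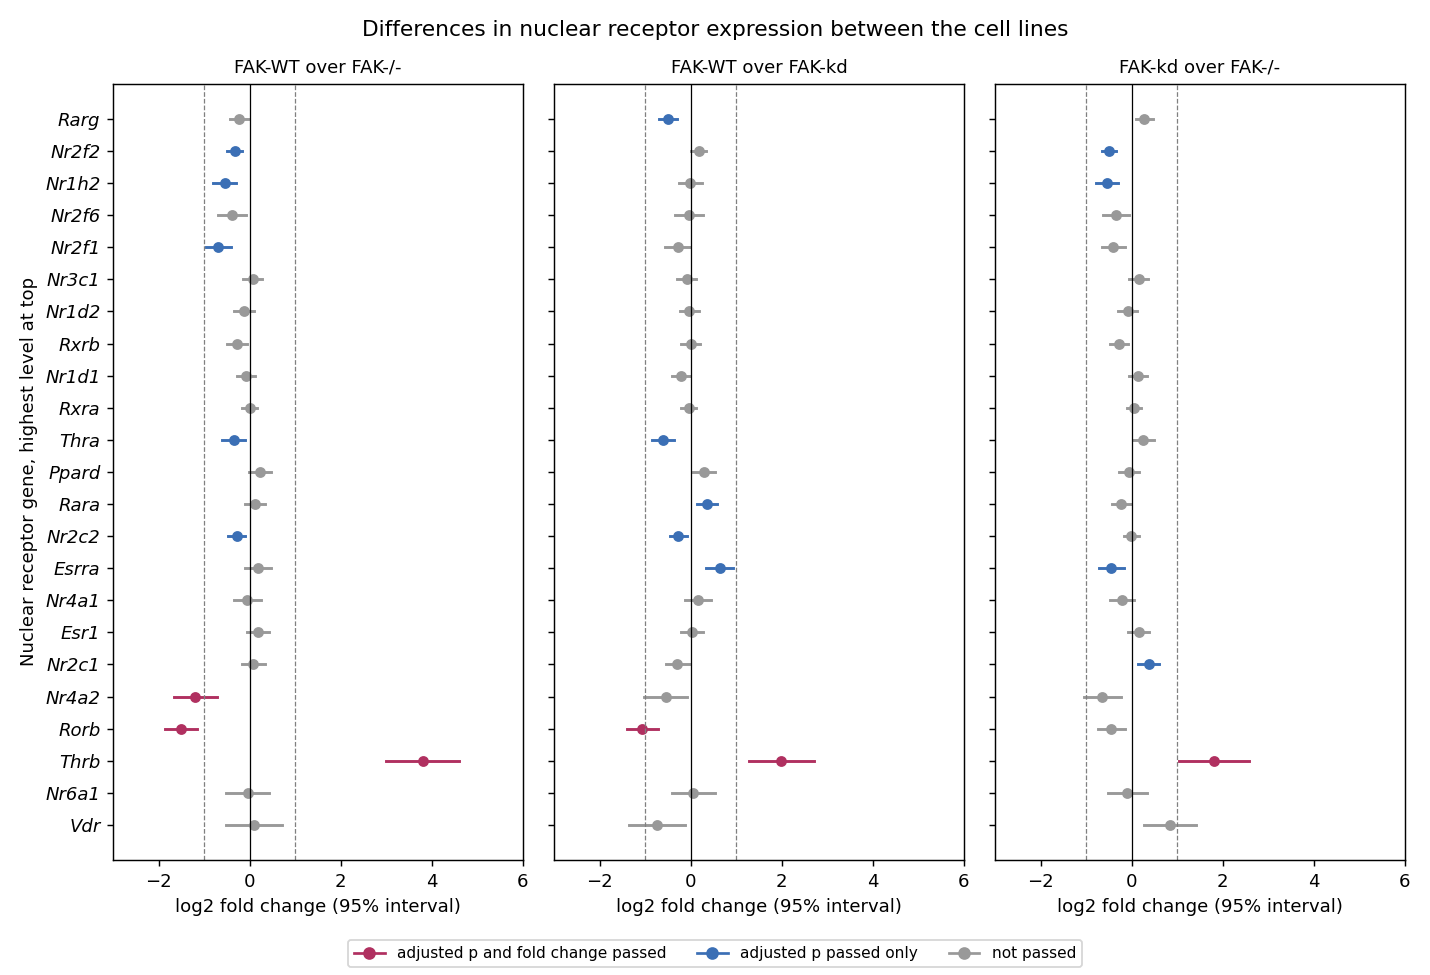
Log2 fold change of the 23 measured receptors with its 95% interval in the 3 comparisons, ordered by level, with dashed lines at the fold-change minimum of 1 in either direction. Thrb lies to the right in each panel at 3.80, 2.00 and 1.81, Rorb and Nr4a2 lie furthest to the left in the first panel at -1.51 and -1.19, and the other receptors lie within 1 of zero.

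Genes around the receptors were taken as 11 lists of ligand metabolism, coregulators, clock partners and known targets. Of 119 listed genes 109 were in the table. Past the threshold were 3 higher and 3 lower in FAK-WT against FAK-/- cells, 4 higher and 2 lower in FAK-WT against FAK-kd cells, and 3 higher and none lower in FAK-kd against FAK-/- cells, where neither edgeR at an unadjusted p under 0.05 (0 genes past the fold-change minimum) nor DESeq2 (0) placed one lower. The medians of the log2 fold change were 0.02, -0.02 and 0.02. These were 5.50%, 5.50% and 2.75% of the listed genes in the table, against 5.38%, 5.26% and 2.01% of all genes.

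In the list of 15 retinoid ligand metabolism genes, 1 was past the threshold in the first comparison, 3 in the second and 1 in the third. These were 6.67%, 20% and 6.67% of the list, against 5.38%, 5.26% and 2.01% of all genes. In the second the low-count Aldh1a1 was past it by edgeR and not by DESeq2. Dhrs9, a retinol dehydrogenase that contributes to retinoic acid synthesis, was measured at 13.8, 15.9 and 15.7 CPM in FAK-WT, 4.37, 3.11 and 2.66 in FAK-/- and 5.37, 7.67 and 6.27 in FAK-kd cells. It was higher in FAK-WT than FAK-/- cells by a log2 fold change of 2.20 ± 0.19 (adjusted p = 8.43e-07) and than in FAK-kd cells by 1.28 ± 0.18 (adjusted p = 0.000125), and higher in FAK-kd than FAK-/- cells by 0.92 ± 0.18 (adjusted p = 0.00516), which is under the fold-change minimum. Like those of Thrb, its libraries fell in the order FAK-WT, FAK-kd, FAK-/- with no overlap.

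Crabp2, which carries retinoic acid to its receptors in the nucleus and is also listed as a retinoic acid target, was measured at 2.52, 1.84 and 2.11 CPM in FAK-WT, 3.93, 3.39 and 3.30 in FAK-/- and 17.0, 17.3 and 16.2 in FAK-kd cells. FAK-kd cells stood alone at the top. FAK-WT replicate 1 held 2 counts, under the floor, and without it the log2 fold change against FAK-kd cells was -3.09. The log2 fold change was -3.08 ± 0.16 in FAK-WT against FAK-kd cells (adjusted p = 2.38e-09) and 2.25 ± 0.13 in FAK-kd against FAK-/- cells (adjusted p = 4.22e-08). Tgm2, a transglutaminase induced by retinoic acid, was likewise highest in FAK-kd cells, with 21.4, 19.0 and 20.7 CPM in FAK-WT, 24.9, 26.1 and 23.9 in FAK-/- and 59.7, 67.2 and 67.6 in FAK-kd cells. Its log2 fold change was -1.70 ± 0.10 in FAK-WT against FAK-kd cells (adjusted p = 1.31e-08) and 1.38 ± 0.09 in FAK-kd against FAK-/- cells (adjusted p = 1.55e-07). Crabp2 and Tgm2 were the 2 of 13 retinoic acid and thyroid hormone targets past the threshold in these comparisons (15.4% in each, against 5.26% and 2.01% of all genes). The median log2 fold change of those 13 was -1.31 in FAK-WT against FAK-kd cells and included genes at or near 0 counts.

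Of 14 coactivators, 7.14%, 14.3% and 0% were past the threshold in the 3 comparisons by edgeR, against 5.38%, 5.26% and 2.01% of all genes. Among them Ppargc1b, a partner of the estrogen-related receptors in mitochondrial gene expression, was highest in FAK-WT cells, at 2.52, 2.66 and 2.77 CPM against 1.38, 1.22 and 1.66 in FAK-/- and 0.809, 0.779 and 0.791 in FAK-kd cells. The FAK-WT replicate 1 value is 2 counts, under the floor, and without that library the log2 fold change over FAK-kd cells was 1.77. FAK-WT cells were past the threshold against FAK-kd cells, at a log2 fold change of 1.76 ± 0.27 (adjusted p = 0.000264). Ppargc1a, with a mean count under the minimum of 30 set for naming values, was also past it in both FAK-WT comparisons by edgeR, and by DESeq2 only against FAK-kd cells. Of 16 LXR and PPAR targets, 18.75%, 0% and 6.25% were past the threshold in the 3 comparisons, against 5.38%, 5.26% and 2.01% of all genes. Ucp2 (-1.11 ± 0.08, adjusted p = 5.88e-08) and Fabp5 (-1.01 ± 0.13, adjusted p = 3.33e-05), a mitochondrial carrier and a fatty acid binding protein, were lower in FAK-WT than FAK-/- cells. Fabp4, another fatty acid binding protein, was past the threshold in the other direction (adjusted p = 0.00517), from 0, 19 and 14 counts in FAK-WT and 0, 2 and 0 in FAK-/- libraries. With 8, 12 and 4 counts in FAK-kd libraries it was also higher there than in FAK-/- cells by edgeR (adjusted p = 0.0456) and not by DESeq2. Ucp2 was measured at 42.8, 52.8 and 50.5 CPM in FAK-WT, 107, 106 and 115 in FAK-/- and 102, 98.3 and 100.5 in FAK-kd cells. Fabp5 was measured at 11.3, 18.5 and 17.3 CPM in FAK-WT, 38.0, 36.4 and 30.9 in FAK-/- and 34.3, 29.8 and 29.0 in FAK-kd cells, and fell under the fold-change minimum in 7 of 16 alternatives.

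**Figure D4:**
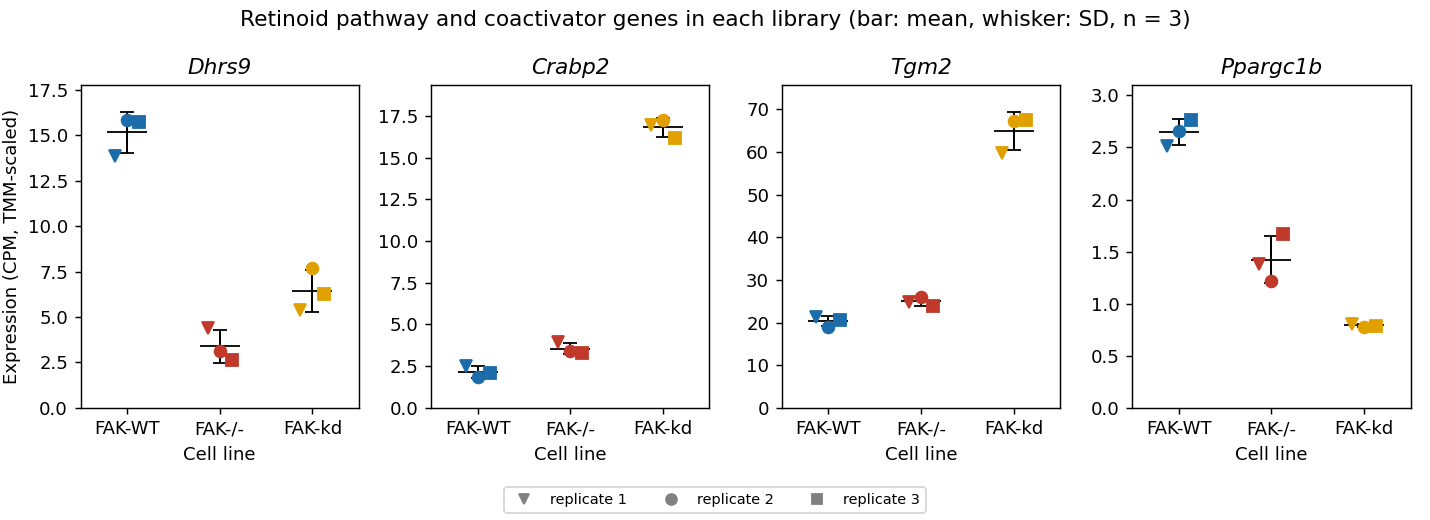
CPM of Dhrs9, Crabp2, Tgm2 and Ppargc1b in each library of the 3 cell lines, with the mean as a bar and the SD as a whisker (n = 3) on axes that start at 0. Dhrs9 and Ppargc1b are highest in FAK-WT cells, at 13.8 to 15.9 and 2.52 to 2.77 CPM, and Crabp2 and Tgm2 are highest in FAK-kd cells, at 16.2 to 17.3 and 59.7 to 67.6 CPM.

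The other lists held fewer differences past the fold-change minimum. No gene was past the threshold in any comparison among 8 receptor chaperones, 10 corepressors, 4 thyroid hormone transport and deiodination genes, 5 vitamin D metabolism genes, 9 steroid metabolism genes and 11 glucocorticoid targets, by edgeR or by DESeq2. At edgeR's adjusted p alone, 18.0%, 17.7% and 7.84% of all genes passed in the 3 comparisons. There the chaperones held 3, 6 and 0 genes and the glucocorticoid targets 6, 5 and 0. The corepressors held 2, 1 and 1, the thyroid hormone genes 1, 0 and 0, and the steroid metabolism genes 1, 1 and 0. The vitamin D genes held 0 in each, and the core clock genes other than Hlf 5, 4 and 0. At an unadjusted p under 0.05 in edgeR, which 29.0%, 28.5% and 20.4% of all genes reached in the 3 comparisons, the chaperones held 5, 7 and 2 genes, the corepressors 3, 1 and 1, the thyroid hormone genes 1, 2 and 1, the vitamin D genes 0 in each, the steroid metabolism genes 2 in each and the glucocorticoid targets 6, 7 and 4. Of 15 core clock genes 1, the low-count Hlf, was lower in FAK-WT than FAK-/- cells by edgeR and not by DESeq2 (6.67%, against 5.38% of all genes past the threshold), and 0 were past the threshold in the other comparisons by either tool, with 6 at an unadjusted p under 0.05 in each.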

How the data were processed

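RNA-seq libraries of FAK-WT-expressing, FAK-/- and FAK-kd-expressing mouse SCC cells were analysed, with 3 replicates each. Cell line and replicate number were taken from the labels. The series calls the replicates biological, but nothing says that they came from separate cultures, so p-values measure the spread between these samples, which may be technical. RNA was prepared with a kit that does not mark strand and read as paired ends. Per the labels, kallisto 0.43.1 and DESeq2 were used on GRCm38 (mm10). The authors summarised kallisto output to genes with tximport, and the deposited values are these estimated counts, rounded to whole numbers, not scaled to library size and without genes at zero in every library. The transcriptome release is not given in the sources used here. Gene symbols, positions and transcript lengths came from GENCODE M21 (18856 of 19044 identifiers had a symbol).

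Counts were tested with edgeR 4.0.16 in R 4.3.3 (TMM, glmQLFit and glmQLFTest, no filter) in 1 fit of the 9 libraries with cell line as the only factor, and Benjamini-Hochberg adjustment over all genes. The threshold was an adjusted p of 0.05 and a log2 fold change of 1 in either direction. SE and 95% intervals came from the same fit. Single genes were compared on CPM with an exact two-sided permutation test. Poisson and Wilson intervals, like the floor of 3 counts, leave out all but counting error. Levels between genes were compared per kilobase of the longest transcript. Shared sequence was the percentage of a gene's 31-base transcript words found in another gene. The edgeR steps were run on simulated counts in which 200 genes per comparison were changed by a log2 fold change of 2 in either direction. They recovered 198, 196 and 198 of these, with 0, 0 and 2 other calls. The changed genes had a mean count of at least 10 and all genes the same dispersion. Neither a GC trend nor smaller changes were simulated.

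The members, lists and tests were chosen with earlier results of these data known. Values in every library were given for receptors past the threshold with at least 10 counts in at least 3 libraries, and for Thrb and Nr4a1, which the study shows. Up to 4 genes per list and comparison were named, those past the threshold with the largest change and a mean count of at least 30. Receptors that passed only the adjusted p, and low-count genes, are named outside this rule, after their values were seen. Alternatives were DESeq2 1.42.0, its size factors in edgeR, library size alone, filterByExpr, fits of 2 groups alone, a replicate block, glmTreat, no fold-change minimum and leaving out each library. A GC correction was added after the data were seen. The ATAC-seq data of the study were not analysed here.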

Additional observations from a re-analysis of the deposited data

Results flagged for a closer look

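Of the receptors and list genes named by the rule above, 6 were past the threshold between FAK-WT and FAK-kd cells. Cell type markers, low-count genes and genes that passed only the adjusted p are left out here. For the 6 genes the effect of FAK-WT over FAK-/- cells differed from that of FAK-kd over FAK-/- cells. That difference is what the FAK-WT against FAK-kd contrast tests, and both effects share the FAK-/- libraries. For Thrb the log2 effects were 3.80 and 1.81, a difference of 2.00 (adjusted p = 0.000538). For Dhrs9 they were 2.20 and 0.92, a difference of 1.28 (adjusted p = 0.000125). For Rorb they were -1.51 and -0.45, a difference of -1.06 (adjusted p = 0.000213). In the other 3 genes the effects had opposite signs. Crabp2 was lower in FAK-WT cells (-0.84, adjusted p = 0.00142) and higher in FAK-kd cells (2.25), a difference of -3.08 (adjusted p = 2.38e-09). Tgm2 was lower in FAK-WT cells by a small amount (-0.32, adjusted p = 0.0338) and higher in FAK-kd cells (1.38), a difference of -1.70 (adjusted p = 1.31e-08). Ppargc1b was higher in FAK-WT cells (0.92, adjusted p = 0.0252), while the FAK-kd effect of -0.84 did not pass (adjusted p = 0.0653), and the difference was 1.76 (adjusted p = 0.000264). All p-values are from edgeR's quasi-likelihood test.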

How the results depend on the processing

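Thrb was past the threshold in all 3 comparisons in each of the 16 alternatives that refit the counts at the same threshold, and no called gene changed sign in them. With glmTreat, which tests against the fold-change minimum itself, 2 receptors remained between FAK-WT and FAK-/- cells, 1 between FAK-WT and FAK-kd cells and 0 between FAK-kd and FAK-/- cells, where Thrb was the one lost (1 by edgeR's quasi-likelihood test and by DESeq2, 15 at an unadjusted p under 0.05 without the minimum). With no fold-change minimum the counts were 9, 7 and 5 receptors. Leaving out single libraries gave 3 to 4, 1 to 2 and 1 receptors, the lowest of the second without FAK-kd replicate 1. At the adjusted p alone, leaving out FAK-/- replicate 3 gave 13, 14 and 9 receptors, and the GC correction 11, 9 and 12. The share of all genes was not counted in the alternatives that refit the counts. Receptor counts from those alternatives therefore have no background to be set against. For the 11 lists, glmTreat gave 1 and 3 genes in the first 2 comparisons, no fold-change minimum gave 33, 31 and 10 genes in the 3 comparisons, and the first count was 3 to 6 with single libraries left out, lowest without FAK-/- replicate 2. With no fold-change minimum 18.0%, 17.7% and 7.84% of all genes passed, and the lists held 109 genes in the table. Rora in FAK-WT against FAK-/- cells was lost with DESeq2 (-2.01), with only the 2 groups fitted (-2.61) and without any 1 of 5 libraries. The cause of these changes was not tested.

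Replicate numbers did not pair the libraries: deviations from the group mean correlated at a mean r of -0.0249 between libraries of the same number in different lines (9 pairs, -0.0906 to 0.0795) and 0.0134 between other numbers (18 pairs). With a replicate block, 3, 2 and 1 receptors were past the threshold in the 3 comparisons, Rora being the one lost (-2.52, adjusted p = 0.0897). At the adjusted p alone the block called 8, 9 and 5 receptors: it added Nr2f6 in the first comparison and Nr2f1 and Nr4a2 in the other two, and lost Thra and Rora in the first and Esrra and Nr2c1 in the third. In the shallow FAK-WT replicate 1 the floor of 3 counts equals 3.78 CPM, and values below it rest on 1 or 2 counts.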
